A study of Saccharomyces cerevisiae with 83 samples.

Results

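The transcripts described here are the unspliced RNAs of ribosomal protein genes in Saccharomyces cerevisiae W303. A member is a locus that has 1 entry for its unspliced transcript and 1 for its spliced transcript in the deposited quantification, and whose standard gene name is RPL or RPS followed by a digit. By that rule there were 100 members, 56 of the large subunit (RPL) and 44 of the small subunit (RPS), among 296 loci that had both entries. The other 196 loci are intron-containing genes of other functions and serve as the comparison. The members include RPL28, also called CYH2, whose product is a large-subunit protein through which mutations confer resistance to cycloheximide, and 46 pairs of A and B paralogs, which account for 92 of the members. Intron length was taken as the difference in effective length between the entries, which adds up all introns of a locus. It was shortest in RPL2A, 147 bases, and longest in RPS22B, 1040 bases, with a median of 404 bases.

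Ribosomal proteins are encoded by a large share of the intron-containing genes of budding yeast, and these genes give most of its spliced mRNA. An unspliced transcript that reaches the cytoplasm is translated into the intron, where ribosomes soon meet a premature stop codon, and such RNAs are substrates of nonsense-mediated mRNA decay (NMD). NMD needs the RNA helicase Upf1 (gene NAM7), Upf2 (gene NMD2) and Upf3, and unspliced CYH2 RNA is one of its classical yeast reporters. Unspliced ribosomal protein transcripts are also degraded in the nucleus, and some ribosomal proteins bind their own unspliced RNA and hold back its splicing.

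The study sequenced RNA, footprints of all 80S ribosomes (total 80S) and footprints of ribosomes pulled down with anti-FLAG gel (IP 80S), in 30, 30 and 23 libraries. All cultures of the experiment with C-terminal tags received cycloheximide at 100 µg/ml just before filtration, and each group had 3 replicates. Its groups were DE572AA-FLAG, an upf1::HIS3 strain (HFY871) carrying pRS425-DE572AA-FLAG, a Upf1 with substitutions in its helicase domain, the strain labelled Upf1-FLAG upf2Δ, an nmd2::HIS3, upf1::URA3 strain (HFY467) carrying pRS425-UPF1-FLAG, Upf1-FLAG, HFY871 carrying pRS425-UPF1-FLAG, and WT-C, the wild-type strain HFY114 with the empty plasmid pRS425. The experiment with N-terminal tags had 2 replicates a group, with cycloheximide (CHX) and without it (noCHX). Its groups were FLAG-Upf1+Upf2+Upf3 (CHX alone), which is HFY871 with pG1-FLAG-UPF1, pRS425-UPF2 and YEplac195-TPI-UPF3 (by these plasmid names Upf1 alone is tagged), FLAG-Upf1, which is HFY871 with pG1-FLAG-UPF1, FLAG-Upf2, the nmd2::HIS3 strain HFY115 with YEplac112-FLAG-UPF2, FLAG-Upf3, the upf3::HIS3 strain HFY861 with YEplac195-TPI-FLAG-UPF3, and WT-N, HFY114 with YEplac112. Every strain but the wild type thus lacked a chromosomal UPF gene and carried a tagged copy on a plasmid. The experiments differed in their rRNA removal kits, and no model combined them. The labels do not say that replicates came from separate cultures, so p-values measure the spread between these libraries, which may be technical. Column labels share a number between the treatments of a replicate, and between its RNA, total 80S and IP 80S libraries. The main models had no term for this pairing.

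RNA libraries held 49079265 to 164141441 counts, while total 80S libraries held 107334 to 3020880 and IP 80S libraries 66971 to 1470361, so that footprint values rest on far fewer counts than RNA values. Upf1 RNA was far above the wild type in the strains that carried it on a plasmid: NAM7 averaged 12522 ± 1529 CPM (counts scaled to library size) in DE572AA-FLAG, 13034 ± 1073 in the strain labelled Upf1-FLAG upf2Δ and 23468 ± 480 in Upf1-FLAG, against 383 ± 10.7 in WT-C (SD, n = 3 each). NMD2 went against the label of the upf2Δ strain, with 1174 ± 17.7 CPM there against 197 ± 12 CPM in WT-C (SD, n = 3 each), and that strain is called by its label throughout. A count of the whole NMD2 entry does not show whether the RNA is intact, and this was not tested.

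In WT-C, unspliced RNA was a small part of most members. Per length, as the ratio of unspliced to spliced FPKM (fragments scaled to transcript length and library size), the median member had 2.98 unspliced per 100 spliced, with quartiles at 1.79 and 6.33. The highest levels in WT-C on that scale were 1587 per 100 for RPS17A, 290 for RPS27A and 209 for RPL22B, which encode 2 small-subunit proteins and a large-subunit protein. These levels are uncertain, since reads are divided between paralogs by estimate. Within WT-C their count ratios spread at most 1.65-fold between replicates. Within DE572AA-FLAG they spread 95.9-fold for RPS17A and 7.42-fold for RPL22B, and RPS27A had a library with no spliced count. The lowest FPKM ratios in WT-C were 0.253 for RPS26A, 0.468 for RPS14A and 0.512 for RPS4B, all of the small subunit. Within each experiment most of the counts of the members were spliced in every library.

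Summed over the 100 members, the unspliced share of counts in RNA was higher in each NMD strain of the C-terminal experiment than in its wild type. It was 11.9%, 14.1% and 11.5% in the DE572AA-FLAG libraries, 12.7%, 11.3% and 12.4% in the strain labelled Upf1-FLAG upf2Δ, 10.7%, 9.99% and 11.4% in Upf1-FLAG, and 7.96%, 8.42% and 8.35% in WT-C. All 9 libraries of the tagged strains thus lay above all 3 of WT-C. In the other loci with both entries the share was 17% to 17.9% in DE572AA-FLAG, against 13.7% to 14.2% in WT-C. Without cycloheximide the shares of the members were lower in all groups, at 5.12% and 4.69% in FLAG-Upf1 and 3.59% and 4.23% in WT-N. In a bulk culture, more unspliced RNA per cell and more cells that carry it cannot be told apart.

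**Figure D1:**
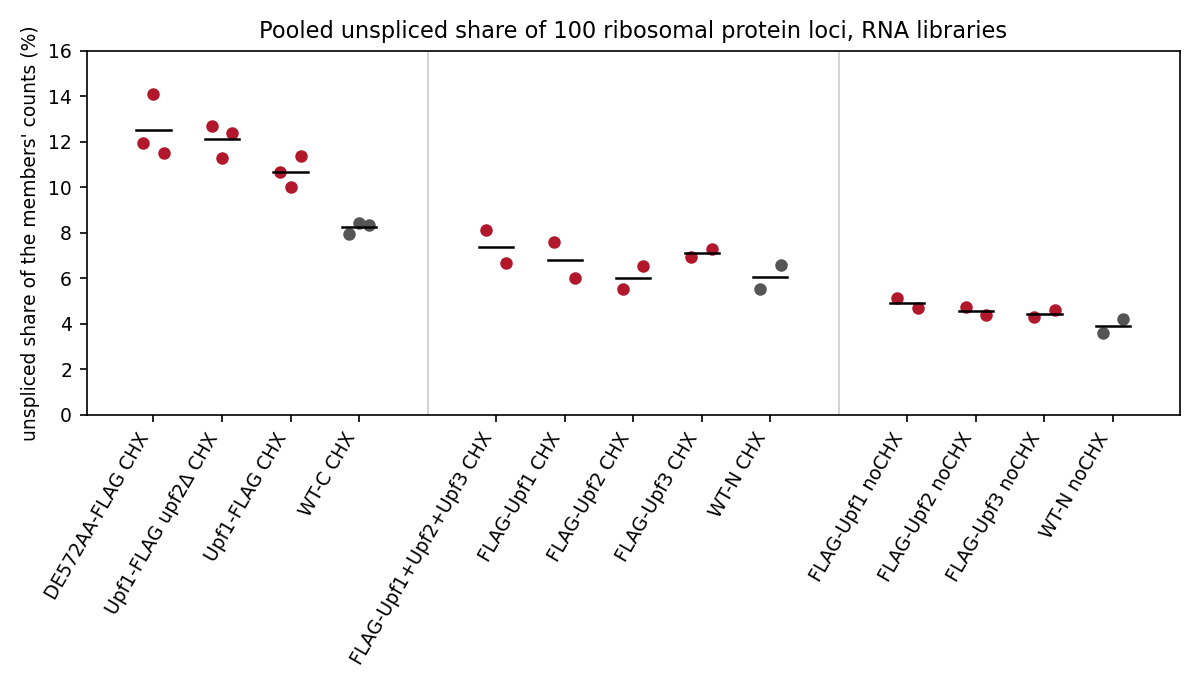
Unspliced counts as a percentage of the unspliced and spliced counts of the 100 members together (vertical axis) in each RNA library, by strain and cycloheximide treatment. Points are libraries and bars are group means. The C-terminal experiment is on the left, where the 9 libraries of tagged strains lie above the 3 of WT-C (7.96% to 8.42%), and the N-terminal experiment follows with and without cycloheximide.

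The comparisons of the C-terminal experiment ask whether unspliced RNA gains on spliced RNA when the tagged Upf1 carries the DE572AA change, when Upf2 is meant to be missing, or when tagged wild-type Upf1 stands in for the chromosomal gene. The measure was the ratio of unspliced to spliced counts of the same locus in the same library, tested with edgeR's quasi-likelihood test in all 271 loci with enough counts, and all 100 members were among them. A member is called where its Benjamini-Hochberg adjusted p over those loci was under 0.05. In DE572AA-FLAG against WT-C the ratio rose in 44 of the 100 members and fell in 0. Over all tested loci 21.0% were called higher and 1.11% lower, and among the 171 loci that are not members 13 rose and 3 fell. The called members were 23 of the large and 21 of the small subunit. The median change over members was 0.51 on the log2 scale, against 0.41 over all loci, and 96 of 100 members had a positive change. In 75 members all 3 DE572AA-FLAG libraries lay above all 3 WT-C libraries, as they did in 43.2% of the loci tested. The called changes were mostly modest. The smallest was 0.31 for RPS26B, and 13 called members changed 2-fold or more. The count was 41 without DE572AA-FLAG replicate 2, which was the highest of its group for 48 of 100 members, but 25, 28 and 28 without WT-C replicate 1, 2 and 3 in turn.

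The strain labelled Upf1-FLAG upf2Δ showed a similar shift against WT-C, with 27 members higher and 0 lower, where 14.0% of all loci were higher. The median over members was 0.45, against 0.32 over all loci, and 70 members had replicates wholly above those of WT-C, as did 39.5% of the loci. A further 1.11% of loci were lower. In Upf1-FLAG, where the tagged wild-type protein is made from a plasmid, 9 members rose and 0 fell, with 3.32% of all loci higher and 0.369% lower, and the median was 0.29 against 0.15. All 9 loci called higher in that comparison were members: RPL28, RPS13, RPS9A, RPS9B, RPS21B, RPL24B, RPL35B, RPS10A and RPS24A. The last 3 were named after their values were seen. These comparisons share the WT-C libraries. Leaving out single libraries gave 5 members for Upf1-FLAG when WT-C replicate 1, 2 or 3 or Upf1-FLAG replicate 3 was dropped.

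**Figure D2:**
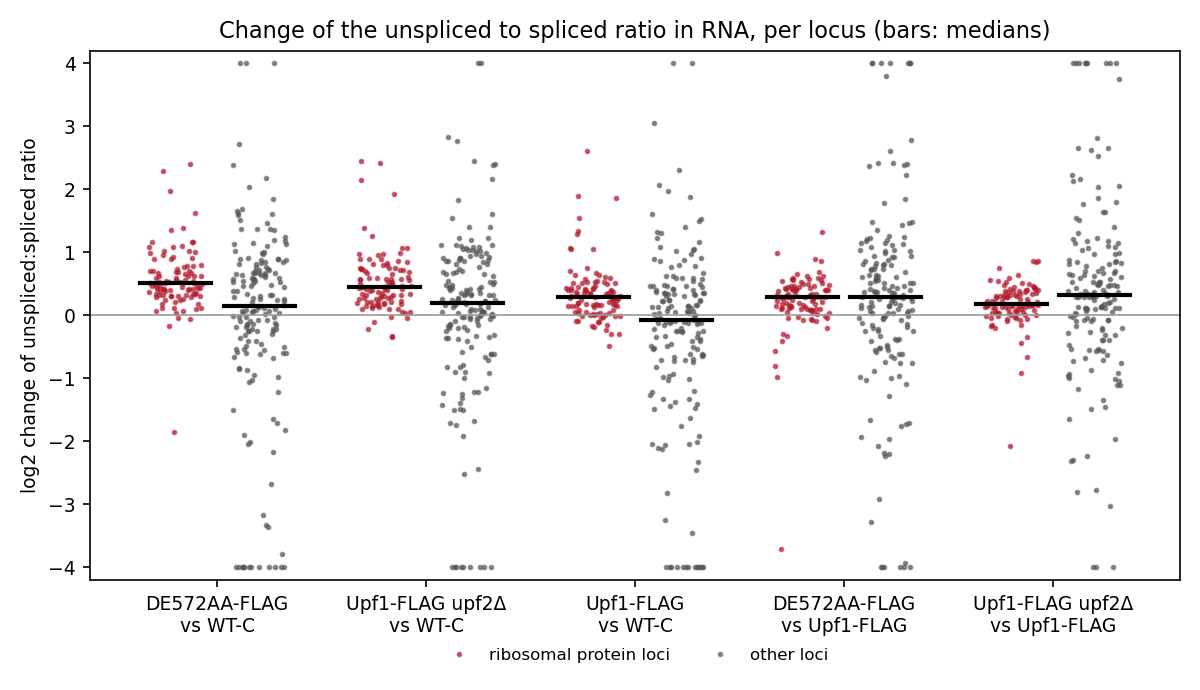
Change of the unspliced to spliced ratio in RNA (log2, vertical axis) for each tested locus in the 5 comparisons of the C-terminal experiment. Red points are ribosomal protein loci, grey points other loci with both entries, and bars are medians. Loci beyond 4 in either direction are drawn at the edge. The median of the members is 0.51 in DE572AA-FLAG against WT-C.

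RPL28 (YGL103W), on chromosome VII from 310967 to 311927 of R64, has an intron of 511 bases and showed the highest called change. Its unspliced counts per 100 spliced counts were 58.7, 51.3 and 48.4 in DE572AA-FLAG, 49.5, 53.5 and 56.3 in the strain labelled Upf1-FLAG upf2Δ, 29.2, 28.4 and 29.6 in Upf1-FLAG, and 9.96, 10.3 and 9.59 in WT-C. The DE572AA-FLAG and upf2Δ-labelled libraries overlapped each other, and both lay above Upf1-FLAG, which lay above WT-C. The log2 change of the ratio against WT-C was 2.40 (SE 0.10, edgeR adjusted p = 8.15e-08) in DE572AA-FLAG and 2.41 (SE 0.10, adjusted p = 1.01e-07) in the strain labelled Upf1-FLAG upf2Δ. In Upf1-FLAG it was 1.54 (SE 0.10, adjusted p = 9.05e-06). The change came from the unspliced entry. It held 921, 699 and 783 CPM in DE572AA-FLAG, against 166, 164.5 and 152 CPM in WT-C, and rose by 2.20 on the log2 scale (edgeR over all transcript entries, adjusted p = 5.43e-08). Spliced RPL28 held 1568, 1362 and 1618 CPM in DE572AA-FLAG and 1666, 1590 and 1586 CPM in WT-C, a change of -0.20 (adjusted p = 0.0995).

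RPS13 (YDR064W), on chromosome IV from 579458 to 580452, encodes a small-subunit protein, has no paralog and has an intron of 539 bases. Its ratio behaved much like that of RPL28, with 57.7, 55.2 and 53.5 unspliced counts per 100 spliced in DE572AA-FLAG, 53.4, 52.3 and 55.6 in the strain labelled Upf1-FLAG upf2Δ, 31.8, 29.9 and 27.4 in Upf1-FLAG, and 14.0, 13.9 and 14.3 in WT-C. The 3 levels did not overlap, save that DE572AA-FLAG and the strain labelled Upf1-FLAG upf2Δ did with each other. Against WT-C the log2 change was 1.98 (SE 0.08, edgeR adjusted p = 8.15e-08) in DE572AA-FLAG and 1.07 (adjusted p = 2.50e-05) in Upf1-FLAG. Unlike RPL28, spliced RPS13 also fell in DE572AA-FLAG, by 0.38 on the log2 scale, while its unspliced entry rose by 1.59.

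A list held genes whose splicing is known to be regulated by ribosomal proteins (RPL30, RPL22B, RPS14B, RPS9A and RPS9B), and the paralogs RPL22A and RPS14A. In DE572AA-FLAG the ratio rose in 5 of these 7, beside 44 of all 100 members and 21.0% of loci. RPL22A and RPS14A, listed as paralogs, were among the 5. The median change was 1.08, against 0.51 over all members. In the strain labelled Upf1-FLAG upf2Δ it rose in 3 of 7, beside 27 of 100 members and 14.0% of loci, and in Upf1-FLAG in 2 of 7, beside 9 of 100 members and 3.32% of loci. RPS9A (chromosome XVI, 404950 to 406044) and RPS9B (chromosome II, 604508 to 605508) encode the same small-subunit protein. RPS9A had 60.3, 54.5 and 44.6 unspliced counts per 100 spliced in DE572AA-FLAG, against 24.2, 23.6 and 27.2 in WT-C, a log2 change of 1.08 (edgeR adjusted p = 5.58e-04). RPS9B had 18.8, 37.2 and 21.9 in DE572AA-FLAG, against 9.34, 9.51 and 10.3 in WT-C, a log2 change of 1.35 (edgeR adjusted p = 0.00334). Neither gene's groups overlapped. In Upf1-FLAG both were called (adjusted p = 0.0347 for each), and both calls were lost with limma, with the replicate block and when single libraries were dropped.

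RPL22A (chromosome XII, 263194 to 263948) and RPL22B (chromosome VI, 64243 to 64932) encode a large-subunit protein that binds the RPL22B intron. RPL22B was mostly unspliced, at 7351, 991 and 1382 per 100 in DE572AA-FLAG and 552, 417 and 334 in WT-C, with a log2 change of 2.29 and a wide error (SE 0.68, edgeR adjusted p = 0.0372). RPL22A had 14.9, 28.5 and 11.1 in DE572AA-FLAG and 6.91, 6.73 and 5.73 in WT-C (log2 change 1.38, SE 0.39, edgeR adjusted p = 0.0291). In DE572AA-FLAG the replicate that was highest for one RPL22 gene was not the highest for the other. Summed over both copies, which share reads, the replicates came close together: 93.2, 90.2 and 79.1 per 100 in DE572AA-FLAG, 88.8, 78.7 and 71.8 in the strain labelled Upf1-FLAG upf2Δ, 62.5, 54.9 and 59.8 in Upf1-FLAG, and 41.1, 39.6 and 36 in WT-C. On that sum DE572AA-FLAG and the upf2Δ-labelled strain overlapped, and each lay above Upf1-FLAG, which lay above WT-C.

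RPL30, whose protein binds its own unspliced RNA and blocks splicing, had 66.3, 34.2 and 46.7 unspliced counts per 100 spliced in DE572AA-FLAG, against 33.8, 28.8 and 25.7 in WT-C, and was not called (log2 change 0.69, edgeR adjusted p = 0.23). RPS14B, which is held back by its own protein, was not called either (log2 change 0.90, edgeR adjusted p = 0.0644), with 93.7, 36 and 65.1 in DE572AA-FLAG against 37.3, 30.2 and 29.9 in WT-C. Its paralog RPS14A, spliced almost completely, had 1.74, 1.42 and 1.75 in DE572AA-FLAG and 0.787, 0.810 and 0.853 in WT-C, a called log2 change of 1.00 (edgeR adjusted p = 0.00771). For RPL30 and RPS14B all 3 DE572AA-FLAG libraries were still above those of WT-C, with a spread of nearly or over 2-fold within DE572AA-FLAG.

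Of the 5 members that host a snoRNA or whose unspliced RNA is cut by the nuclease Rnt1, 2 rose in DE572AA-FLAG. Beside them stand 44 of all 100 members and 21.0% of loci. The median change was 0.45 in the 5, against 0.51 over all members. RPL7A had 5.77, 5.74 and 4.89 per 100 in DE572AA-FLAG and 3.92, 3.99 and 4.03 in WT-C (log2 change 0.45, edgeR adjusted p = 0.00754). RPL7B (chromosome XVI, 173152 to 174702) had 26.8, 14.0 and 23.9 in DE572AA-FLAG and 11.4, 10.8 and 11.3 in WT-C (log2 change 0.89, edgeR adjusted p = 0.0217). RPS22B, whose RNA is cut by Rnt1, was not called, with a change of 0.06 (edgeR adjusted p = 0.916) and with 59.4, 101 and 56.4 per 100 in DE572AA-FLAG around the 62.3, 69.6 and 68.3 of WT-C. RPL18B had 19.1, 17.9 and 18.6 per 100 in DE572AA-FLAG and 20.2, 18 and 19.9 in WT-C, and its unspliced and spliced entries fell together, by 0.36 and 0.30 on the log2 scale. RPS17B, known from early work as an NMD-sensitive unspliced RNA, was not called (log2 change 0.62, edgeR adjusted p = 0.145), though its libraries, at 21.0, 40.4 and 22.3 in DE572AA-FLAG and 15.4, 19.9 and 16.9 in WT-C, did not overlap.

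Several members outside those lists changed with tight replicates in DE572AA-FLAG and WT-C. RPS29A, of the small subunit, had 14.8, 20.3 and 16.3 unspliced counts per 100 spliced in DE572AA-FLAG, against 7.19, 7.88 and 7.79 in WT-C (log2 change 1.16, edgeR adjusted p = 9.11e-04). RPL24B, of the large subunit, had 24.7, 27 and 21.5 in DE572AA-FLAG, 21.4, 21.2 and 18.2 in Upf1-FLAG and 12.9, 12.7 and 12.5 in WT-C. RPS21B, of the small subunit, stood out for its order. It had 53.1, 55.8 and 52.6 in Upf1-FLAG, above its 42.2, 44.0 and 35.9 in DE572AA-FLAG and 25.6, 26.7 and 25.1 in WT-C. Its log2 change against WT-C was 1.06 (edgeR adjusted p = 0.00246) in Upf1-FLAG and 0.65 (adjusted p = 0.00942) in DE572AA-FLAG. RPS21B also differed between the WT-N replicates, with 7.65 in replicate 1 and 39.4 in replicate 2 without cycloheximide. Summed with its paralog RPS21A, it had 51.2, 53.0 and 48.3 in Upf1-FLAG. The strain labelled Upf1-FLAG upf2Δ overlapped this on the sum, at 41.1, 50.7 and 33.6. Over the N-terminal RNA libraries the sum ran from 7.23 to 54.3.

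**Figure D3:**
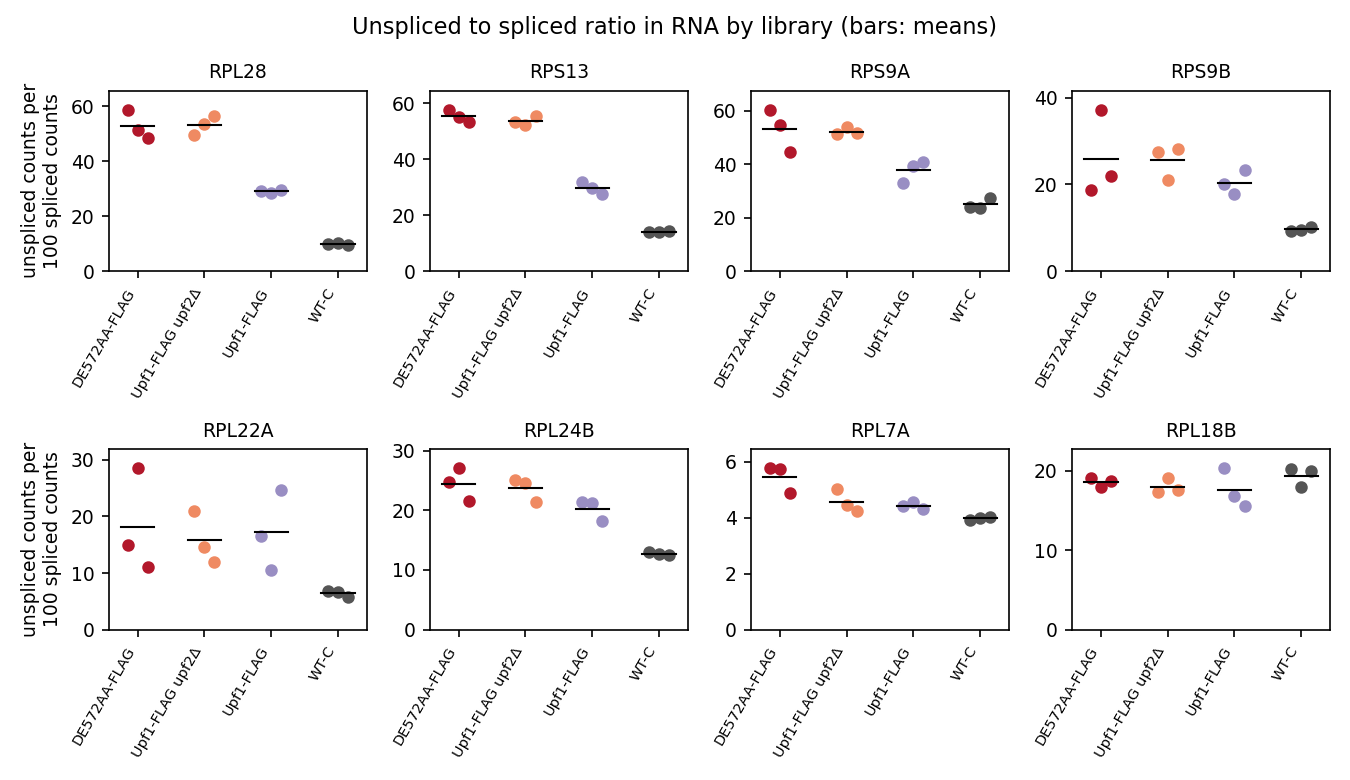
Unspliced counts per 100 spliced counts in RNA (vertical axes, each from 0) for 8 members in the 4 strains of the C-terminal experiment. Points are the 3 replicates and bars their means. RPL28 and RPS13 fall into 3 separate levels, with DE572AA-FLAG and the strain labelled upf2Δ together at the top and WT-C lowest, whereas RPL18B has overlapping groups and RPS9B and RPL22A have 1 DE572AA-FLAG library apart from the others.

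DE572AA Upf1 was also set against wild-type Upf1 on the same plasmid. NAM7 RNA differed too, at 12522 CPM in DE572AA-FLAG, 13034 in the strain labelled Upf1-FLAG upf2Δ and 23468 in Upf1-FLAG. In comparisons with Upf1-FLAG, the strain difference and the level of NAM7 RNA therefore cannot be told apart. In DE572AA-FLAG against Upf1-FLAG the ratio rose in 8 members and fell in 0, with 3.69% of all loci higher and 0.369% lower, and the median was 0.29 over members and over all loci alike. The called members were RPS26A (1.32), RPS13 (0.90), RPL28 (0.86), RPS29A (0.62), RPL14A (0.58), RPS23A (0.55), RPL13A (0.54) and RPS24B (0.46), with log2 changes in brackets. RPS26A had 1.15, 0.863 and 0.977 unspliced counts per 100 spliced in DE572AA-FLAG, against 0.355, 0.544 and 0.322 in Upf1-FLAG (edgeR adjusted p = 0.00971). The Upf1-FLAG libraries lay on both sides of the 0.483, 0.436 and 0.473 of WT-C. The count was 5 with limma, 19 with DESeq2 and 0 in a model of the compared groups alone. It ran from 4 without Upf1-FLAG replicate 2 or 3 to 17 without Upf1-FLAG replicate 1, and was 5 without DE572AA-FLAG replicate 3. In the strain labelled Upf1-FLAG upf2Δ against Upf1-FLAG, RPL28, RPS13 and RPS24B rose and 0 fell, with 1.11% of loci higher and 0.369% lower. RPS24B had 11.6, 11.2 and 11.7 in the strain labelled Upf1-FLAG upf2Δ and 7.97, 8.38 and 8.14 in Upf1-FLAG, without overlap. The Upf1-FLAG libraries are shared by these 2 comparisons.

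A ratio can rise because its numerator rises or its denominator falls, so each entry was tested alone, over 6739 transcript entries. In DE572AA-FLAG against WT-C, 20 unspliced entries of members rose and 7 fell, where 26.3% of all entries were higher and 27.6% lower. Of the spliced entries of members, 84 of 100 fell and 0 rose. The median log2 change was 0.07 for the members' unspliced entries and -0.44 for their spliced entries. Of the 44 members with a higher ratio, 15 had both a higher unspliced and a lower spliced entry, 3 a higher unspliced entry alone, RPL28 among them, and 26 a lower spliced entry without a higher unspliced one. In the strain labelled Upf1-FLAG upf2Δ, 24 unspliced entries rose and 6 fell, against 26.0% and 27.9% of all entries, and 78 spliced entries fell. Of its 27 members with a higher ratio, 20 had a higher unspliced entry. In Upf1-FLAG 9 unspliced entries rose and 3 fell, against 17.5% and 12.8%, and 35 spliced entries fell. Counts of the members, unspliced and spliced together, were 7.66% ± 0.24 of the library in DE572AA-FLAG and 9.17% ± 0.25 in WT-C (SD, n = 3 each).

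**Figure D4:**
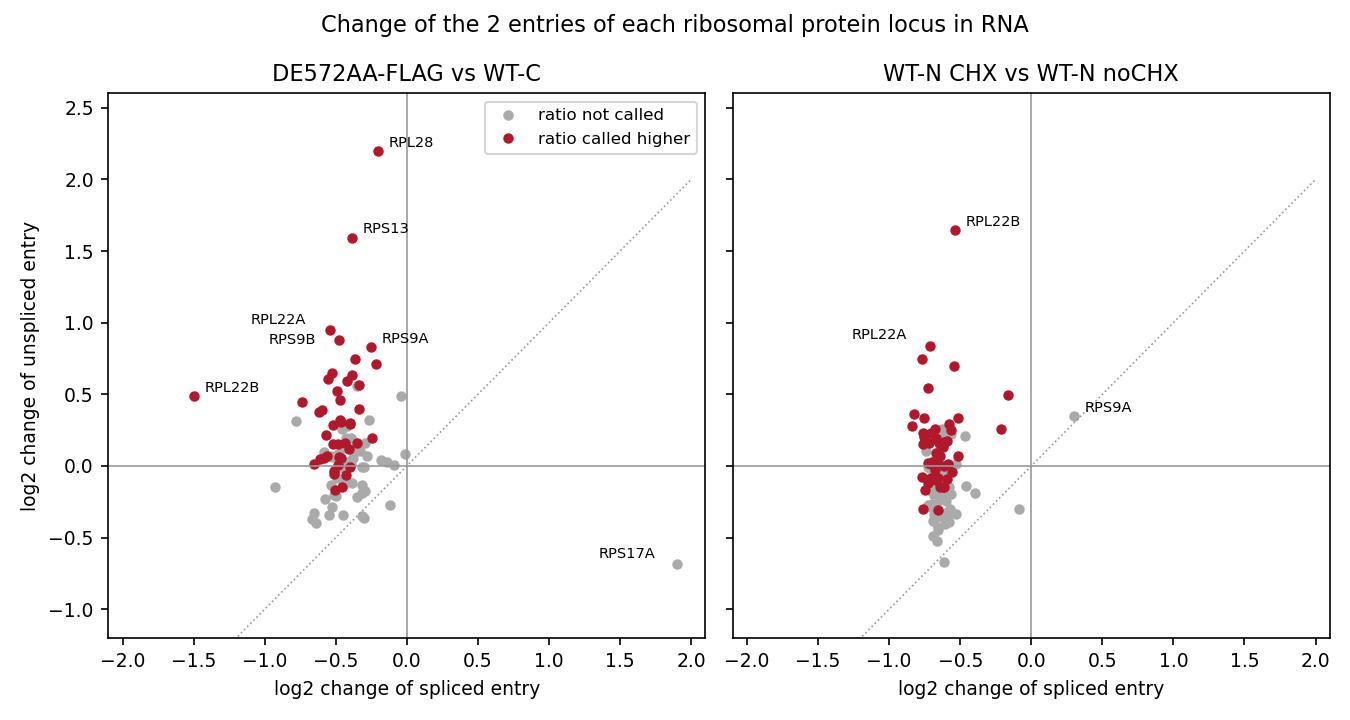
Log2 change of the spliced entry (horizontal) and of the unspliced entry (vertical) of each of the 100 members in RNA, for DE572AA-FLAG against WT-C (left) and for WT-N with against without cycloheximide (right). Red points are members whose ratio rose, and on the dotted line both entries change alike. Most points lie left of 0, that is, with less spliced RNA, and RPL28 (unspliced 2.20, spliced -0.20) and RPS13 (1.59 and -0.38) stand highest on the left plot.

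The precision of single members depended on whether the reads could be assigned. An A and B paralog pair shares most of its exon sequence, and only reads that reach into the intron or across the exon junction tell the unspliced from the spliced entry, so values of single paralogs are uncertain. In 20 members the replicates of at least 1 strain spread more than 2-fold. RPS17A was the extreme case, with 314, 30099 and 332 unspliced counts per 100 spliced in DE572AA-FLAG against 3160, 3478 and 3083 in WT-C, whereas it had 4.47 to 11.3 in the N-terminal experiment. For RPS27A no spliced count at all was assigned in 3 libraries, DE572AA-FLAG replicate 2, the upf2Δ-labelled replicate 1 and Upf1-FLAG replicate 3. Summed with RPS27B, its paralog, RPS27A had 87.9, 111 and 82.3 per 100 in DE572AA-FLAG and 63.0, 68.7 and 68.3 in WT-C. Among the 80 members whose replicates stayed within 2-fold, the ratio rose in 40 in DE572AA-FLAG, 27 in the strain labelled Upf1-FLAG upf2Δ and 9 in Upf1-FLAG. The 80 were picked by their spread in these same libraries. Without that limit on spread, 21.0%, 14.0% and 3.32% of all tested loci were higher in these strains in turn. A share of loci under the limit was not taken. In DE572AA-FLAG against WT-C both copies were called in 11 of the 46 pairs, 1 copy in 20 and none in 15. With the copies summed, 31 of 54 proteins were called, and no share over all loci was taken for that sum. Across the 100 members, which share libraries, the change and the summed intron length had a Pearson r of -0.006 and a Spearman rho of -0.03.

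The N-terminal strains tested the same RNAs with each Upf protein tagged. RPL28 was the one member called in FLAG-Upf1 against WT-N without cycloheximide, where 0.365% of 274 loci were higher and 0.000% lower. At an unadjusted p under 0.05 there were 16 members. Shares of loci called are at the adjusted threshold, and none was taken at the unadjusted one, here or below. RPL28 had 23.3 and 24.2 unspliced counts per 100 spliced in FLAG-Upf1, against 9.96 and 8.84 in WT-N, a log2 change of 1.34 (SE 0.14, edgeR adjusted p = 2.00e-04, but 0.124 in a model of the compared groups alone). It was also the one member called in FLAG-Upf2, at 15.2 and 14.4 (log2 change 0.66, edgeR adjusted p = 0.0463), where 0.730% of loci were higher and 0.365% lower, and that call was lost with limma, with the replicate block, with the compared groups alone and without any of the 4 libraries. In FLAG-Upf3, with 0.000% of loci called higher, RPL28 had 11.7 and 11.7 (log2 change 0.32, edgeR adjusted p = 0.36), and no member was called (7 at an unadjusted p under 0.05). The libraries of these strains kept the order FLAG-Upf1, FLAG-Upf2, FLAG-Upf3 and WT-N for RPL28 without overlap. Spliced entries of 62 members fell in FLAG-Upf1 without cycloheximide, when 20% of all entries were lower.

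With cycloheximide, RPL28 had 53.0 and 44.5 per 100 in FLAG-Upf1+Upf2+Upf3, 26.3 and 27.1 in FLAG-Upf1, 20.5 and 25.3 in FLAG-Upf2, 20.3 and 19.7 in FLAG-Upf3, and 17.8 and 16.6 in WT-N. FLAG-Upf1+Upf2+Upf3 stood apart at the top, and it was the one strain with called members in this treatment: RPL28 (log2 change 1.5, edgeR adjusted p = 3.22e-05) and RPS13 (0.90, adjusted p = 0.0426), with 0.730% of loci higher. The RPS13 call was lost with limma, with the replicate block and in 3 of 4 fits that left out a library (all but the one without FLAG-Upf1+Upf2+Upf3 replicate 2), and both calls were lost in a model of the compared groups alone. RPS13 had 28.1 and 21.4 there, against 12.4 and 13.9 in WT-N. In FLAG-Upf1 against WT-N with cycloheximide RPL28 had a log2 change of 0.63 (edgeR adjusted p = 0.0914), and no member was called in that strain, FLAG-Upf2 or FLAG-Upf3 in this treatment. In each, 0.000% of loci were called higher at the adjusted threshold. Members at an unadjusted p under 0.05, for which no share of loci was taken, numbered 12 for FLAG-Upf3, 11 for FLAG-Upf1 and 1 for FLAG-Upf2. Whether the change in FLAG-Upf1 differed between treatments was tested as an interaction. It was -0.70 on the log2 scale for RPL28, and 0 members passed the threshold (smallest edgeR adjusted p = 0.485, with 11 members at an unadjusted p under 0.05).

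Cycloheximide itself changed the ratio widely in the wild type. In WT-N with against WT-N without cycloheximide, 49 members rose and 0 fell, 31 of the large and 18 of the small subunit, where 20.1% of all loci were higher and 3.28% lower, and in the other 174 loci 6 rose and 9 fell. In 75 members both libraries with cycloheximide lay above both without it, as in 36.9% of the loci. The median over members was 0.59, against 0.39 over all loci. RPL22B had 429 and 599 unspliced counts per 100 spliced with cycloheximide, against 100 and 122 without it (log2 change 2.20, edgeR adjusted p = 8.51e-04). RPL22A had 8.61 and 11.0 with cycloheximide, against 3.59 and 3.04 without it (log2 change 1.56). RPL28 changed by 0.87 (edgeR adjusted p = 0.00103). The count of 49 fell to 19 without WT-N CHX replicate 2 and to 26 without WT-N noCHX replicate 1, and it was 0 when the model held these 4 libraries alone. WT-N noCHX replicate 2 was the shallowest RNA library, and its ratio was above that of replicate 1 in 79 of 100 members, so that the replicates of this group differed by a median of 0.25 on the log2 scale.

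Under cycloheximide the spliced entries of 96 members fell in WT-N, and 1 rose, RPS9A, when 29.5% of all entries were lower. Unspliced entries of 12 members rose and 20 fell, both under the 30.8% of all entries that were higher and the 29.5% that were lower. Of the 49 members with a higher ratio, 38 had a lower spliced entry without a higher unspliced one. The members called in DE572AA-FLAG against WT-C and those called for cycloheximide shared 29 genes, 65.9% of the DE572AA-FLAG list of 44 and 59.2% of the cycloheximide list of 49. Of all 100 members, 49 were on the cycloheximide list and 44 on the DE572AA-FLAG list. These comparisons share no library.

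Ribosome footprints fell almost entirely on spliced entries. Over the members, unspliced entries took 0.313%, 0.359% and 0.324% of total 80S footprints in DE572AA-FLAG, 0.363%, 0.391% and 0.475% in the strain labelled Upf1-FLAG upf2Δ, 0.230%, 0.298% and 0.245% in Upf1-FLAG, and 0.185%, 0.134% and 0.208% in WT-C. On this share each library of the tagged strains lay above each library of WT-C. Members made up a larger part of all total 80S counts in WT-C, 14.6% to 17.2%, than in the tagged strains, 11.2% to 13.7%. In IP 80S the share was 0.564%, 0.600% and 0.830% in DE572AA-FLAG, 0.329%, 0.377% and 0.291% in the strain labelled Upf1-FLAG upf2Δ, and 0.375%, 0.252% and 0.244% in Upf1-FLAG. Within the C-terminal experiment the 3 IP 80S libraries of DE572AA-FLAG thus lay above every other footprint library. The share is within the members' counts, which were a smaller part of the library in IP 80S. They were 7.10%, 6.93% and 6.44% of IP 80S counts in DE572AA-FLAG, against 13.2%, 12.5% and 12.2% of total 80S counts. Unspliced members held 403, 590 and 510 of 1006650, 1419200 and 954118 counts in IP 80S. In total 80S they held 536, 729 and 605 of 1294980, 1626640 and 1531000. The higher share thus does not show that they gained within the library. The other loci with both entries had a higher share in total 80S of DE572AA-FLAG too, 1.43% to 1.69%, against 0.124% to 0.532% in WT-C, but in IP 80S of DE572AA-FLAG they had 0.678% to 1.10%, below total 80S, where the members lay above it. No IP library of untagged cells was used here.

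The unspliced to spliced ratio was lower in total 80S than in RNA of the same strain for nearly every member, as for most loci. Translating ribosomes cover an unspliced RNA only up to its stop codon, while RNA reads can cover it whole, so the ratios are on unlike scales. How far this lowers the footprint ratio was not tested. The ratio was lower in 97 members in DE572AA-FLAG (67.5% of 274 loci lower), in 95 in the strain labelled Upf1-FLAG upf2Δ (64.2%), in 96 in Upf1-FLAG (63.9%) and in 96 in WT-C (66.1%). The one member with a higher ratio in footprints, in each strain, was RPL36A (YMR194W; chromosome XIII, 651145 to 651910), a large-subunit gene named after its values were seen, while 0.365% of loci were higher in DE572AA-FLAG, 0.365% in the strain labelled Upf1-FLAG upf2Δ, 0.730% in Upf1-FLAG and 0.365% in WT-C. In total 80S RPL36A had 84.5, 161 and 146 unspliced footprints beside 119.7, 86.9 and 84.2 spliced ones in DE572AA-FLAG, and 28.4, 50.7 and 45.1 beside 23.3, 46.9 and 36.1 in WT-C. It held 20.9% of the members' unspliced footprints in DE572AA-FLAG and 32.3% in WT-C. Without RPL36A the mean shares were 0.26% in DE572AA-FLAG, 0.33% in the strain labelled Upf1-FLAG upf2Δ, 0.18% in Upf1-FLAG and 0.12% in WT-C, in the same order as with it.

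Between strains, few members had enough total 80S footprints on the unspliced entry. Of 64 loci that passed the minimum, 27 were members. Their ratio rose in 3 members in DE572AA-FLAG against WT-C (RPS17A, RPL35A and RPS29A, with 6.25% of loci higher) and in 8 in the strain labelled Upf1-FLAG upf2Δ (15.6%), and in 0 in Upf1-FLAG (0.000% of loci higher). In Upf1-FLAG 9 members had an unadjusted p under 0.05, and no share of loci was taken at that threshold. None of the 11 calls was left with the replicate block or with no count minimum. A member could pass the minimum through the strains in which it was high. Tested by entry, the unspliced footprints of RPL28, RPS17A and RPL7B rose in DE572AA-FLAG (5.50% of entries higher), and spliced footprints of 43 members fell (4.22% lower).

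RPL28 unspliced footprints were rare in total 80S and concentrated in the pulled-down ribosomes of DE572AA-FLAG. In total 80S there were 7.57, 9.55 and 13.3 in DE572AA-FLAG, 3.69, 7.48 and 7.44 in the strain labelled Upf1-FLAG upf2Δ, 9.6, 5.71 and 0 in Upf1-FLAG, and 0, 0 and 0 in WT-C. That is 0.21 per 100 spliced in DE572AA-FLAG over the 3 libraries, while the 0 of WT-C allows up to 0.047 per 100, at 3 counts over the group, for counting error only. In IP 80S there were 53.3, 70.8 and 74.2 in DE572AA-FLAG, 13.5, 9.91 and 2.0 in the strain labelled Upf1-FLAG upf2Δ, and 0, 2 and 0 in Upf1-FLAG. Over the libraries these are 3.40, 0.87 and 0.072 per 100 spliced footprints, and the last is under its limit of 0.108. RPL28 held 13.2% of the members' unspliced footprints in DE572AA-FLAG IP 80S, more than any other member.

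**Figure D5:**
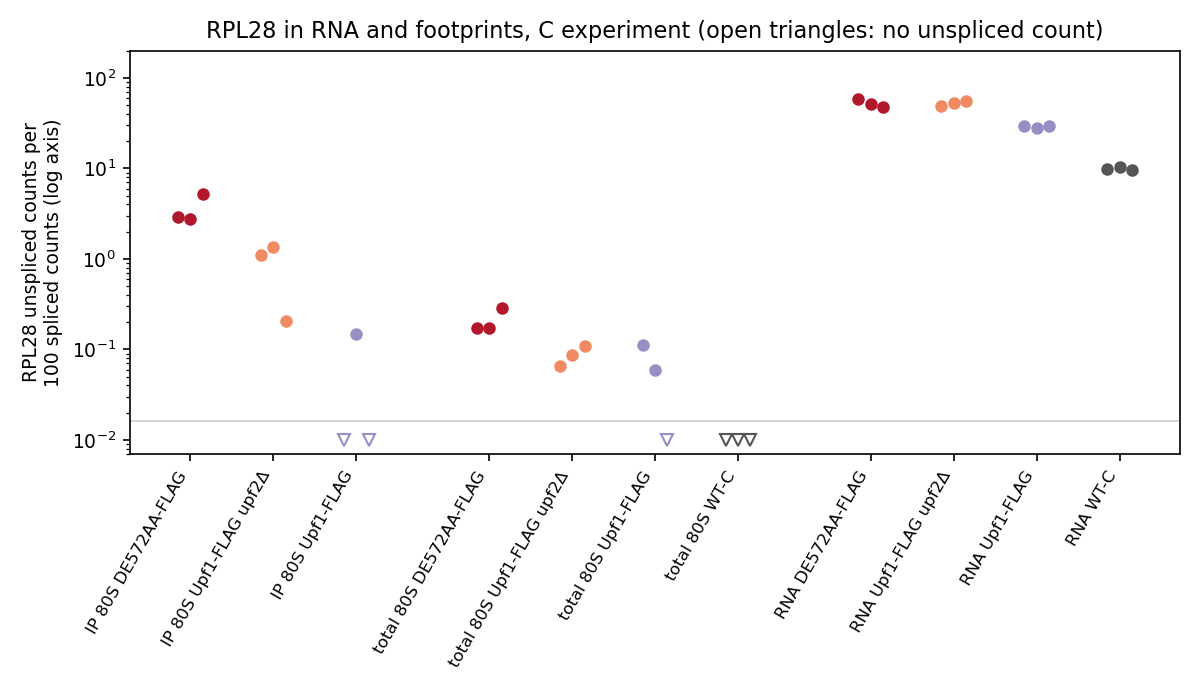
RPL28 unspliced counts per 100 spliced counts (log axis) in each IP 80S, total 80S and RNA library of the C-terminal experiment. Points are libraries, and open triangles under the grey line are libraries with no unspliced count, as in all 3 total 80S libraries of WT-C. The RNA levels lie between 9.59 and 58.7, well above all footprint levels, though RNA and footprint ratios are on unlike scales. Among footprints the IP libraries of DE572AA-FLAG are highest.

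Set against total 80S of the same strain and tested by entry over 5050 entries, unspliced RPL28 rose in IP 80S in DE572AA-FLAG, by 2.90 on the log2 scale (SE 0.44, edgeR adjusted p = 2.07e-06), when 17% of all entries were higher and 20% lower. It also rose in the strain labelled Upf1-FLAG upf2Δ, by 2.04 (SE 0.59, edgeR adjusted p = 0.00487), with 22.0% of entries higher and 22.9% lower. With each library left out in turn the change was 2.70 to 3.08 in DE572AA-FLAG and 1.70 to 2.43 in the strain labelled Upf1-FLAG upf2Δ, called each time. In Upf1-FLAG it was -1.09 (edgeR adjusted p = 0.43). The difference between DE572AA-FLAG and Upf1-FLAG in this IP change was 3.99 (SE 1.09, unadjusted p = 8.04e-04 in edgeR's model), but it did not pass adjustment over all entries (adjusted p = 0.203). The difference between DE572AA-FLAG and the strain labelled Upf1-FLAG upf2Δ was 0.86 (unadjusted p = 0.27 in the same model).

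RPL28 was the one member whose unspliced entry rose in these IP comparisons, among the 22 members' unspliced entries that had enough footprints. The minimum was taken over IP and total 80S libraries together. An entry could pass it through the group in which it was high, as RPL28 could through IP 80S of DE572AA-FLAG. Being the one of 22 is therefore no separate support for its rise. The members' unspliced entries that fell in DE572AA-FLAG were RPL36A, by 2.12 on the log2 scale, and RPL7B, by 1.56. Spliced RPL28 fell instead, with changes of -1.12 in DE572AA-FLAG, -1.22 in the strain labelled Upf1-FLAG upf2Δ and -1.45 in Upf1-FLAG. So did most spliced members: 80 fell and 2 rose in DE572AA-FLAG, 84 fell and 3 rose in the strain labelled Upf1-FLAG upf2Δ, and 89 fell and 2 rose in Upf1-FLAG, where 21.9% of all entries were higher and 22.9% lower. RPL18B rose in all 3 strains. As a ratio within the locus, RPL28 had a log2 change of 4.02 between IP and total 80S in DE572AA-FLAG, but with the 48 loci that the ratio test kept the edgeR adjusted p was 0.152. In any strain 0 members were called (0.000% of loci higher). At an unadjusted p under 0.05, where no share of loci was taken, there were 3, 5 and 2 members in DE572AA-FLAG, the strain labelled Upf1-FLAG upf2Δ and Upf1-FLAG.

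In the N-terminal experiment the footprint libraries were too shallow for most members, and 0 of 8 members that passed the minimum were called between IP and total 80S in any group (0.000% of 14 loci higher, 0 at an unadjusted p under 0.05). Without cycloheximide, pulled-down ribosomes of FLAG-Upf1 gave 9.51 and 10.6 unspliced RPL28 footprints beside 90.5 and 14.4 spliced ones, or 19.1 per 100 over both libraries, against 0.98 per 100 in total 80S of that strain. The replicates differ widely in the denominator. For FLAG-Upf2 the pooled values were 4.42 in IP and 0.42 in total 80S, and for FLAG-Upf3 8.43 in IP and 0.16 in total 80S. These rest mostly on 1 library each, since by replicate the IP values were 0.80 and 6.69 in FLAG-Upf2 and 18.8 and 0 in FLAG-Upf3. With cycloheximide, unspliced RPL28 had 5.95 and 0 footprints in IP of FLAG-Upf1 and 0 and 14.29 in IP of FLAG-Upf2, or 1.78 and 2.95 per 100 over both libraries. It had none in IP of FLAG-Upf3, which allows up to 1.62 per 100, or of FLAG-Upf1+Upf2+Upf3, which allows up to 2.26, and the difference between these strains was not tested. RPL28 led the members' unspliced footprints in IP of FLAG-Upf1, with 94.2%, and of FLAG-Upf2, with 23.9%, both without cycloheximide. These are parts of only 21.3 counts, on 2 members, in FLAG-Upf1 and 120 counts, on 16 members, in FLAG-Upf2.

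Genes that act on these RNAs were read from lists chosen for their roles, in DE572AA-FLAG against WT-C at the level of their own spliced or single transcripts, where the median of all entries was -0.003. Of 21 splicing factors, 5 rose and 8 fell, among them PRP5, an early helicase of the spliceosome, at 0.86, and PRP43, which takes the spliceosome apart, at -0.43 on the log2 scale. Of 6 factors that retain unspliced RNA in the nucleus, PML1 (0.85) and PML39 (0.67) rose and NAB2 (-0.46) fell. Of 9 decapping and 5′ decay factors 0 rose and 5 fell, including DCP1 (-0.52) and DCP2 (-0.43), the decapping enzyme. Of 5 nuclear decay factors 3 fell, with RNT1, which cuts RPS22B RNA, at -0.18. Of 9 regulators of ribosomal protein gene transcription 2 rose, CRF1 (1.30), a corepressor, and HMO1 (0.33), and 5 fell, with RAP1 at -0.52 and IFH1, the coactivator, at -0.29. Of the 4 NMD factors 3 rose, including NAM7 from its plasmid, and UPF3 fell by 0.33. Over all entries 26.3% were higher and 27.6% lower.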

How the data were processed

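RNA, total 80S and IP 80S libraries of yeast were quantified by the authors with RSEM, after cutadapt and Bowtie, on R64/sacCer3, per the submitters' processing notes, with versions not given in the sources used here. The deposited expected counts and FPKM values, per the file headers, hold 1 entry for an unspliced and 1 for a spliced transcript of a locus. Expected counts were rounded for tests. FPKM served only to compare levels between genes. Only reads that touch the intron or span the junction tell the entries apart, and paralogs share reads, which RSEM divides by estimate. Footprints are of the 27 to 32 nt class with cycloheximide, and in the N-terminal experiment without it also of 20 to 23 nt. Names and coordinates come from a RefSeq table of R64.

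The ratio was tested as the interaction of form (unspliced or spliced) with group, with a term per library, in edgeR 4.0.16 (R 4.3.3), all groups of an experiment in 1 model, over loci with at least 10 counts by edgeR's filter on expression. Levels of single entries were tested over the whole table with TMM scaling. P-values were adjusted over all loci or entries, with 0.05 as the threshold. A limit for a value of 0 is 3 counts and, like all counts without molecular identifiers, covers counting error only. Alternatives were limma 3.58.1, DESeq2 1.42.0, other filters, fits of the compared groups alone, a replicate block and leaving out each replicate. The split by IP entries, shares without RPL36A, the subset of members within 2-fold and the strain difference of the IP change were added after seeing the data. The members and lists were chosen with earlier results of these data known. Genes were named by role (RPL28 and the regulated, snoRNA-host or Rnt1-cut genes, and RPS17B), as the 5 largest called changes against WT-C (3 in other comparisons) with replicates that do not overlap, and as the 3 highest and lowest FPKM ratios in WT-C. RPL36A, RPL18B in IP 80S, RPL35B, RPS10A, RPS24A and other members listed after a count were named after their values were seen. One gene of the named lists is not reported here.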

Additional observations from a re-analysis of the deposited data

How the results depend on the processing

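No result reversed its direction. Of the alternatives for summary results, 304 kept the call or count, 13 were stronger, 71 weaker and 4 moved. Over single genes 4397 were the same, 69 stronger, 198 weaker and 4 moved. Counts of members called by ratio in RNA that moved by over 1.5 times were, for Upf1-FLAG against WT-C (9), 19 with DESeq2 and 5 with the replicate block, for DE572AA-FLAG against Upf1-FLAG (8), 5 with limma, 19 with DESeq2 and 0 in a model of the compared groups alone, and for the strain labelled Upf1-FLAG upf2Δ against Upf1-FLAG (3), 11 with DESeq2. The model of the compared groups alone also gave 0 for FLAG-Upf1 noCHX (1), FLAG-Upf2 noCHX (1), FLAG-Upf1+Upf2+Upf3 (2) and cycloheximide in WT-N (49). Limma gave 0 for FLAG-Upf2 noCHX and 1 for FLAG-Upf1+Upf2+Upf3 and for FLAG-Upf3 CHX (0), and the replicate block 0 for FLAG-Upf2 noCHX and 1 for FLAG-Upf1+Upf2+Upf3. In total 80S, DE572AA-FLAG (3) had 0 with no filter, with the replicate block or with the compared groups alone, the strain labelled Upf1-FLAG upf2Δ (8) had 0 with no filter or the replicate block and 5 with the compared groups alone, and Upf1-FLAG (0) had 1. Unspliced entries called in RNA were, for DE572AA-FLAG against Upf1-FLAG (15), 6 with the compared groups alone, for the strain labelled Upf1-FLAG upf2Δ against Upf1-FLAG (10), 16 with DESeq2, for FLAG-Upf1 noCHX (17), 11, and for FLAG-Upf2 noCHX (7), 0 with the compared groups alone. For FLAG-Upf3 noCHX (2) they were 4 with DESeq2, 1 with the replicate block and 0 with the compared groups alone, for FLAG-Upf1 CHX (7) 11 and 0, for FLAG-Upf2 CHX (0) 2 with DESeq2, and for FLAG-Upf3 CHX (5) 14 with DESeq2 and 3 with the compared groups alone. The pooled unspliced share from FPKM was 7.15% in DE572AA-FLAG, 6.94% in the strain labelled Upf1-FLAG upf2Δ, 6.11% in Upf1-FLAG and 4.68% in WT-C. The cause of these shifts was not tested.

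With each replicate left out in turn, members called by ratio numbered 25 to 41 for DE572AA-FLAG against WT-C, 22 to 29 for the strain labelled Upf1-FLAG upf2Δ, 5 to 7 for Upf1-FLAG, 4 to 17 for DE572AA-FLAG against Upf1-FLAG, 2 to 4 for the strain labelled Upf1-FLAG upf2Δ against Upf1-FLAG, 1 to 2 for FLAG-Upf1 noCHX, 0 to 0 for FLAG-Upf2 noCHX, 0 to 1 for FLAG-Upf1 CHX, 1 to 2 for FLAG-Upf1+Upf2+Upf3 and 19 to 48 for cycloheximide. In total 80S they were 0 to 1 for DE572AA-FLAG and 0 to 0 for the strain labelled Upf1-FLAG upf2Δ. Unspliced entries numbered 6 to 14 for Upf1-FLAG against WT-C, 8 to 20 for FLAG-Upf1 noCHX, 4 to 6 for FLAG-Upf2 noCHX, 0 to 2 for FLAG-Upf3 noCHX, 3 to 10 for FLAG-Upf1 CHX, 2 to 4 for FLAG-Upf3 CHX and 3 to 8 for FLAG-Upf1+Upf2+Upf3. Replicate numbers did not pair the strains: same-numbered deviations in RNA correlated at -0.41 to 0.45 in the C-terminal experiment, and 4 of 18 were over 0.1. For WT-N with and without cycloheximide the correlation was 0.742, over 2 numbers, and the replicate block gave 43 members in place of 49. A planned repeat with footprints of 37 to 43 nt was not run, since not all groups had that class. Footprint depth limits what unspliced entries can show, most of all in the N-terminal experiment.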
